A study of Homo sapiens with 11 samples.

Results

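The glucocorticoid receptor (GR) sites described here were bound by GR in both of the receptor-expressing HEK293 lines and carried a SUMO-2/3 site in both of them. HEK293 is a human embryonic kidney cell line. They were chosen by listing alone: a site of the wild-type GR list was taken when it overlapped, by at least 1 bp, a GR site of the 3KR line and a SUMO-2/3 site of each line. By this rule 2007 of 11259 wild-type GR sites were found, which is 17.8% (95% exact Clopper-Pearson interval 17.1 to 18.5), and 20.1% of the 10006 GR sites shared by the lines. The other shared GR sites fell into 3 classes: 2008 with SUMO-2/3 in the wild-type line only, 496 with it in the 3KR line only and 5495 with it in neither.

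Binding was measured by chromatin immunoprecipitation and sequencing (ChIP-seq) in lines made by Flp-In recombination, which puts a transgene into 1 prepared genomic place. The wild-type line stably expressed unmodified GR, and the 3KR line stably expressed a GR that cannot be SUMOylated; each is a single engineered line. The control line, FRT, was made without a GR transgene and gave 1 GR library. That library listed 1016 GR sites, so GR was also found without a transgene. GR at a site of the wild-type or 3KR line is therefore not shown to come from the transgene alone. All lines grew in steroid-depleted medium for 72 h and then received 100 nM dexamethasone, a synthetic glucocorticoid, for 1 h, so no untreated cells were compared. GR and SUMO-2/3 had 2 libraries in each receptor line; the series calls them biological duplicates, and the labels do not say whether cultures were separate.

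GR is a nuclear receptor that stays in the cytoplasm with chaperones until a glucocorticoid binds it, and then enters the nucleus and binds DNA. SUMO-2 and SUMO-3 are near-identical small proteins that are joined to lysines of many chromatin proteins, GR included, by a cascade of activating, conjugating and ligating enzymes and are removed by SENP proteases. SUMOylation of GR is known to restrain its activity at promoters with several binding elements. The SUMO-2/3 antibody does not tell which protein at a site carries the modifier. A SUMO-2/3 site in either line therefore marks the modifier on chromatin, and its carrier there is not known.

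Since the rule used the 4 lists, strength in them is given as a description with no test. GR at these sites was strong in both lines. Tag counts, the sequenced fragments falling in a library's own peak, ranged from 51 to 2059 with a median of 228 in wild-type GR library 1, and from 110 to 2713 with a median of 402 in library 2. In the 3KR line the GR medians were 413 tags in library 1 and 362 in library 2. Medians at shared GR sites without any SUMO-2/3 were lower in all 4 GR libraries, at 110 and 196 tags for wild-type GR and 220 and 179 for 3KR GR. At sites with SUMO-2/3 in the wild-type line only they were 148 and 279 tags for wild-type GR and 232 and 204 for 3KR GR. Sites with SUMO-2/3 in the 3KR line only had 160.5 and 273 wild-type GR tags, but 405.5 and 339 3KR GR tags, nearly those of the jointly occupied sites. The ranges of these classes overlapped throughout, since every listed peak needed at least 51 tags and some sites without SUMO-2/3 reached 2059.

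Sites were ranked by fold enrichment, the authors' ratio of tags to background. Their median percentile (0 being the strongest) was 15.1 among the 11259 wild-type GR sites and 9.12 among the 18856 3KR GR sites. The lists differ in length, so the percentiles do not compare the lines. Of the wild-type GR sites in the quintile with the highest fold, 52.6% (1184 of 2251) were jointly occupied, and in the lowest 2.31% (52 of 2252). The strongest quintile thus held 59.0% of all 2007 sites. A weak remainder existed all the same, and the site with the poorest mean rank lay on chromosome 20 from 8619560 to 8620312, with 51 and 144 GR tags in the wild-type line and 84 and 72 in the 3KR line.

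By percentile of fold, SUMO-2/3 at the sites stood in a different place in the 2 lines' own lists. These lists differ in length, with 12109 wild-type and 7784 3KR sites, so equal percentiles are not equal ranks. In the wild-type line SUMO-2/3 tags had medians of 180 in library 1 and 290 in library 2, with ranges of 53 to 2266 and 72 to 3480. In the 3KR line the medians were 112 and 226, with ranges of 51 to 1520 and 65 to 3900. The median percentile by fold was 27.7 in the wild-type SUMO-2/3 list, against 30.6 for the 3595 SUMO-2/3 sites found in both lines with no GR site in any list. In the 3KR list it was 45.5, against 35.6 for those GR-free sites. By fold the sites therefore ranked slightly ahead of the GR-free sites among wild-type SUMO-2/3 sites and behind them among 3KR sites. By tags they were not behind, since the GR-free medians were 157 and 254 for wild-type and 108 and 215 for 3KR SUMO-2/3.

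**Figure D1:**
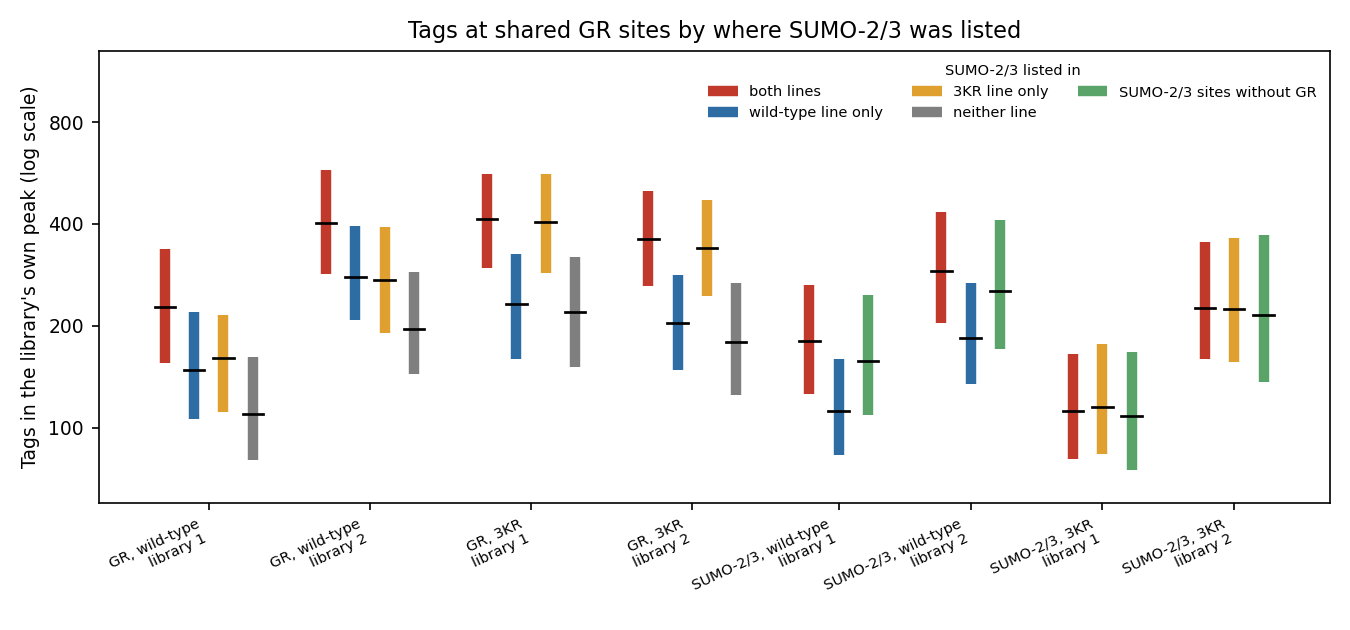
Tags per library (log axis) at shared GR sites by class of SUMO-2/3, and at SUMO-2/3 sites of both lines without GR in the SUMO-2/3 libraries; bars run from the lower to the upper quartile over sites and black lines mark medians. In every GR library the sites with SUMO-2/3 in both lines have the highest median, from 228 to 413 tags.

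The 10 sites with the best mean fold percentile over the 8 libraries show what joint occupancy looked like at its strongest. The first lay on chromosome 5 from 6519159 to 6520447 (hg19, as are all positions here). Its GR tags were 770 and 1026 in wild-type libraries 1 and 2, and 1055 and 1055 in the 3KR libraries. Its SUMO-2/3 tags were 699 and 963 in the wild-type and 438 and 733 in the 3KR libraries, so both antibodies were high in every library. GR fold enrichment there was 74.97 and 45.36 for the wild-type receptor, 74.33 and 58.91 for 3KR, and SUMO-2/3 fold was 62.95, 59.52, 44.28 and 53.61.

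The second, also on chromosome 5, spanned 1416146 to 1417969. It had 784, 1026, 924 and 877 GR tags and 900, 975, 408 and 589 SUMO-2/3 tags, in the order wild-type 1 and 2, 3KR 1 and 2. Here the wild-type SUMO-2/3 counts were both above both 3KR counts. The same held on chromosome 16 from 85628122 to 85629289, with 529, 641, 227 and 433 SUMO-2/3 tags against 369, 654, 554 and 565 GR tags. These tags are not normalized for depth. Centred on the GR-free sites of both lines, the mean log2 SUMO-2/3 ratios of wild-type to 3KR were 0.60 and 0.55 at these sites. On chromosome 19 a broader site from 18808342 to 18810605 had 1095, 1639, 1510 and 1510 GR tags. Its SUMO-2/3 tags were 1402, 1786, 895 and 1474, and there the ranges of the 2 lines overlapped.

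A GR site of the control line lay at 2 of these 10 sites. One was on chromosome 4 from 6634537 to 6635771, with 271 control-line tags at a fold of 28.39, beside 574 and 792 GR tags in the wild-type line. The other, on chromosome 1 from 157253521 to 157255030, had 584 control-line tags at a fold of 33.98. Sites on chromosomes 12, 8, 4 and 2 completed the 10, with no control-line site.

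At the sites where it could be measured, GR and SUMO-2/3 mostly peaked within 100 bp of each other. Summits, the positions of highest signal, are given relative to each library's own peak, so they could be placed only where that peak had the width of the listed site. This held for both antibodies at 611 sites of the wild-type line and 614 of the 3KR line. The median distance from GR summit to SUMO-2/3 summit was 20 bp in the wild-type line (quartiles 8 and 37 bp), and 560 of 611 sites, 91.7% (89.2 to 93.7), had them within 100 bp. In the 3KR line the median was 23 bp (quartiles 10 and 44 bp), with 567 of 614, 92.3% (89.95 to 94.3), within 100 bp. The signed medians were 0 and 2 bp, so neither antibody lay to one side along the chromosome. A tail remained, with distances past 300 bp at 35 wild-type and 23 3KR sites, up to 3326 bp.

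These distances were close to that of SUMO-2/3 between the lines and longer than those of GR between lines. From the wild-type to the 3KR line the GR summit moved by a median of 10 bp at 647 sites and the SUMO-2/3 summit by 22 bp at 557 sites. From wild-type GR to control-line GR the median was 14 bp at 174 sites. By pair of libraries the GR to SUMO-2/3 median ran from 17 to 22 bp in the wild-type line and from 19 to 32.5 bp in the 3KR line.

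The tight alignment was not limited to sites with SUMO-2/3 in both lines. At sites whose SUMO-2/3 was seen in wild-type cells only, the wild-type median was 18 bp over 589 sites and 93.5% were within 100 bp; the difference in that share was -1.90 percentage points, with a 95% Newcombe interval of -4.90 to 1.10. Where it was listed in the 3KR line only, the 3KR median was 25 bp over 159 sites and 85.5% were within 100 bp. The jointly occupied sites exceeded that share by 6.81 points (1.61 to 13.4). Their median 3KR SUMO-2/3 fold was also higher, at 11.19 and 16.39 against 9.195 and 12.445, and strength was not matched here. All intervals of this kind cover counting error over sites, which are not independent replicates.

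**Figure D2:**
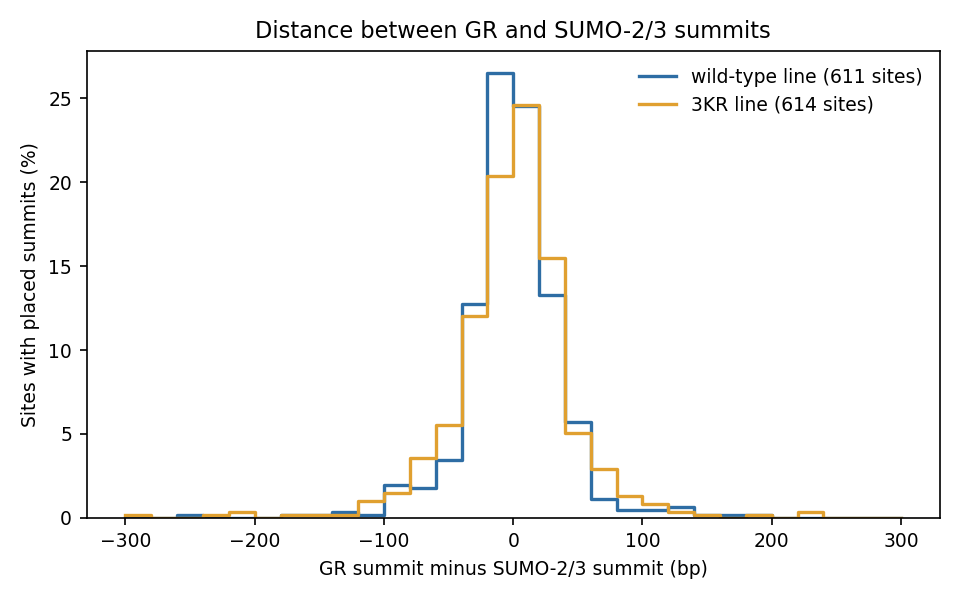
Distance from the SUMO-2/3 summit to the GR summit (bp, bins of 20 bp) at sites where both could be placed, as a percentage of the 611 wild-type and 614 3KR sites; 35 and 23 sites farther than 300 bp apart are not drawn. Both curves centre on 0.

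The width of the SUMO-2/3 site relative to the GR site differed between the lines. In the wild-type line the median widths were 1094 bp for GR and 1217 bp for SUMO-2/3. The SUMO-2/3 site was the wider at 68.3% of sites, and it enclosed the whole GR site at 929 of 2007. In the 3KR line the medians were 1147 and 1085 bp, the SUMO-2/3 site was the wider at 38.9%, and it enclosed the GR site at 368. Listed width grows with signal and depth, and SUMO-2/3 tags in listed peaks came to 2066882 and 3469124 in the wild-type libraries but 1127839 and 2343951 in the 3KR libraries; the part of depth in the width was not tested.

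Members near the overlap limit were few. The smallest overlap with any of the 3 partner lists was 16 bp, on chromosome 1 at 218491542 to 218492563, followed by 21 bp on chromosome 15 at 78503489 to 78504563. In all, 5 of the 2007 sites overlapped a partner by under 50 bp. Just outside the limit, 7 shared GR sites with SUMO-2/3 in a single line missed the other line's SUMO-2/3 site by under 50 bp, the nearest by 13 bp on chromosome 1 at 30722301 to 30723122. The narrowest site, 73 bp wide, lay on chromosome 5 from 173194018 to 173194090. Some neighbours shared a partner: the 2007 sites met 2016 GR sites of the 3KR line, 1997 wild-type and 2004 3KR SUMO-2/3 sites, the last being 25.7% of the 3KR SUMO-2/3 list.

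The control-line library was not used to choose the sites. A GR site of the control line lay at 287 of the 2007 sites, 14.3% (12.8 to 15.9), against 8.1% of all shared GR sites and 7.49% of the whole wild-type list. The share was 7.17% (6.08 to 8.39) with SUMO-2/3 in wild-type cells alone, 10.1% (7.57 to 13.1) with it in 3KR cells alone and 5.99% (5.37 to 6.65) with none. The differences were 7.13 percentage points (5.23 to 9.04), 4.22 points (0.914 to 7.06) and 8.31 points (6.71 to 10.0) in that order. None of these intervals included 0, but the second did with centres within 200 bp (2.96, -0.189 to 5.68) and among sites above each list's median fold (3.87, -4.25 to 9.91).

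Compared at similar GR strength, the order of the classes was not the same in every quintile of wild-type GR fold. In quintile 1, the highest, a control-line site was present at 19.2% of jointly occupied sites (227 of 1184). The share was 10.9% with SUMO-2/3 in the wild-type line only (81 of 740) and 20.2% without it (53 of 263). With SUMO-2/3 in the 3KR line only it was 38.3%, but of few sites (18 of 47, 24.5 to 53.6). Sites of the 3KR line only also had the highest share in quintiles 3 and 5. Jointly occupied sites had the highest in quintiles 2 (9.46%) and 4 (5.0%). In quintiles 2 to 5 the intervals of the 4 classes overlapped. Over all quintiles, by the Mantel-Haenszel difference, the jointly occupied sites and the sites without SUMO-2/3 differed by -0.18 points (-2.15 to 1.80). Against sites with SUMO-2/3 in the wild-type line only the difference stayed at 5.13 points (3.25 to 7.01), and it was 3.08 points (1.15 to 5.02) in 20 strata of GR fold in both lines. Against sites with SUMO-2/3 in the 3KR line only the sign turned, to -3.26 points (-6.50 to -0.026), an interval that included 0 when GR fold in both lines made the strata (-2.05, -5.23 to 1.14).

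**Figure D3:**
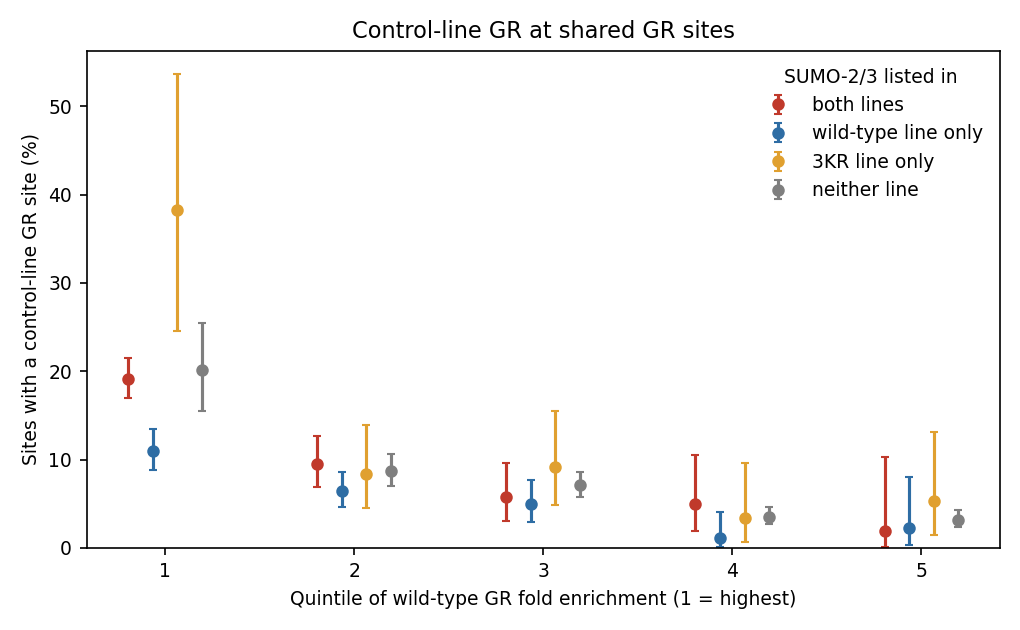
Percentage of shared GR sites with a GR site in the control line, by quintile of wild-type GR fold and by where SUMO-2/3 was listed; points are shares and bars exact 95% Clopper-Pearson intervals over sites. In quintile 1 the sites with SUMO-2/3 in both lines (19.2%) lie beside those without SUMO-2/3 (20.2%) and above those with it in the wild-type line only (10.9%).

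At the 287 sites with a control-line GR site both antibodies were stronger. Median GR tags were 335 and 553 in the wild-type and 562 and 501 in the 3KR libraries, against 213, 378, 388 and 343 at the other 1720 sites. Median SUMO-2/3 tags were 242 and 377 in the wild-type and 149 and 322 in the 3KR libraries, against 170, 276.5, 107 and 216. The ranges overlapped in every library. Control-line peaks at these sites, 281 in number when each site is given its best partner, had a median of 189 tags. The 735 control-line peaks that were no site's best partner had a median of 166. In all, 283 control-line peaks met a jointly occupied site, so a few of the 735 did too. These values lack a replicate, since the control line has 1 library.

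Tags of the lines were next compared site by site, as log2 ratios of wild-type to 3KR averaged over the 4 pairs of libraries. The pairs combine 2 libraries of each line, so they are not independent. Library totals are not known, so the SUMO-2/3 ratios were centred on the GR-free SUMO-2/3 sites of both lines, and the GR ratios on shared GR sites without SUMO-2/3. The tags come from the same contrast as the rule, and no test was made. The median SUMO-2/3 ratio at jointly occupied sites lay 0.12 log2 units above that at GR-free sites, or 0.04, 0.10, 0.13 and 0.18 by pair of libraries. By fold enrichment the difference was 0.22, by tags per bp of each library's own peak 0.10, and 0.09 as the median over chromosomes. Over all jointly occupied sites the median was thus relatively lower in the 3KR line than at GR-free sites in all 4 pairs, by an amount that varied with the measure. It was not lower there at the weaker GR sites: in the 2 lowest of 5 quintiles of GR fold the median ratio was -0.05 and -0.02. The rule required a listed 3KR SUMO-2/3 peak, with at least 51 tags in library 1. Sites with less SUMO-2/3 there fell in another class, and the part of this limit in the ratios was not tested.

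The GR ratio placed the sites between the classes whose SUMO-2/3 was listed in 1 line. At jointly occupied sites it lay 0.07 log2 units above shared GR sites without SUMO-2/3 (0.002 to 0.12 over the 4 pairs). At sites with SUMO-2/3 in the wild-type line only it lay 0.31 above them (0.24 to 0.40), and at sites with SUMO-2/3 in the 3KR line only it was -0.38 (-0.42 to -0.35). The ranges of the 3 classes over pairs did not overlap, but the 4 pairs share libraries and are not independent. The classes themselves were formed by listing in the same lines. Without 3KR GR library 1 the value at jointly occupied sites was 0.007. As the median over chromosomes the 3 values were 0.04, 0.20 and -0.31, and per bp of peak 0.02, 0.14 and -0.16.

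Around these medians single sites spread widely. The centred SUMO-2/3 ratio had its 10th and 90th percentiles at -0.54 and 0.88, and the GR ratio at -0.45 and 0.62. SUMO-2/3 was on the wild-type side in all 4 pairs at 801 of 2007 sites (39.9%), beside 30.4% of all 5780 wild-type SUMO-2/3 sites also listed in the 3KR line. It was on the 3KR side in all 4 pairs at 494 (24.6%), beside 25.3%. For GR the counts were 576 (28.7%), beside 31.2% of the 10006 shared GR sites, and 377 (18.8%), beside 24.1%.

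The ratios of both antibodies moved together from site to site. Across the 2007 sites their Spearman rho was 0.622, and 0.516 with chromosome medians removed. In quintiles of the sites ordered by GR ratio the median SUMO-2/3 ratio went from -0.35 in the lowest through -0.06, 0.12 and 0.32 to 0.68 in the highest. The 2 ratios of a site come from the same genomic place and the same pair of lines, though from separate libraries. Per bp of each library's own peak, rho was 0.306. In quintiles ordered by mean log2 GR fold of both lines the SUMO-2/3 ratio was -0.05 at the weakest GR sites, then -0.02, 0.06 and 0.18, and 0.39 at the strongest. The limit of listing in the 3KR line applies to these quintiles as well. The GR ratio in these quintiles had no steady order, at 0.09, -0.02, -0.0001, 0.06 and 0.20. By chromosome, median SUMO-2/3 ratios ran from -0.52 on chromosome 18 to 0.68 on chromosome 14, and GR ratios were -0.36 and 0.64 on the same chromosomes.

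**Figure D4:**
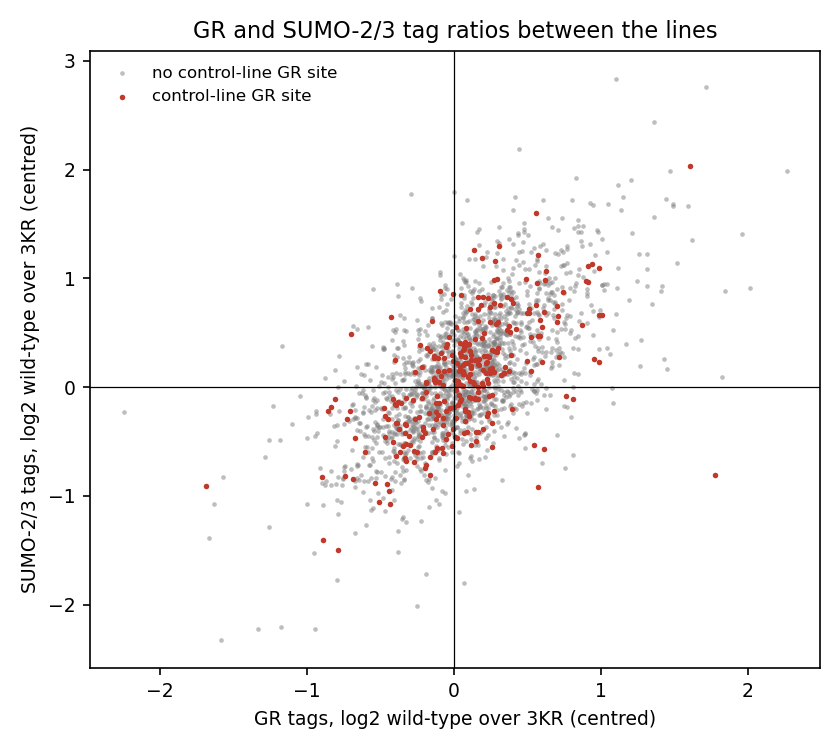
Centred log2 ratio of wild-type to 3KR tags, averaged over 4 library pairs, for GR (horizontal) and SUMO-2/3 (vertical) at the 2007 sites; each point is a site and red points have a GR site in the control line. The points form 1 rising cloud (Spearman rho 0.622) around medians of 0.07 and 0.12.

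At the sites named for the most unequal SUMO-2/3 tags the libraries' own peaks also differed in length. The largest SUMO-2/3 ratio that held in all 4 pairs was 2.83, on chromosome 14 from 104022766 to 104026496, with 1101 and 1788 wild-type and 112 and 216 3KR tags. The wild-type peaks there were 8798 and 8037 bp long and the 3KR peaks 1191 and 1417 bp, and per bp the ratio was 0.28. Of the 5 largest, 4 lay on chromosome 14 and the fifth, on chromosome 8 from 1994262 to 1995020 with 480, 810, 93 and 126 SUMO-2/3 tags, had 2.19 by tags and 0.72 per bp. The lowest ratio was -2.32, on chromosome 15 from 70378998 to 70380171. There SUMO-2/3 tags were 138 and 248 in the wild-type line and 170 and 3158 in the 3KR line, so that 1 library, whose peak was 16928 bp long, held the excess.

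A more even case was a pair of neighbouring sites on chromosome 2. The site from 169869339 to 169870275 had 97 and 156 wild-type and 324 and 640 3KR SUMO-2/3 tags, and 202, 574, 870 and 868 GR tags, a SUMO-2/3 ratio of -2.23 by tags and -0.58 per bp. Its neighbour, from 169868375 to 169869247, met the same 3KR sites and had 89 and 174 wild-type SUMO-2/3 tags. By raw tags, each site taken singly, both antibodies were higher in both 3KR libraries than in either wild-type library. The 2 sites are not separate cases, since both were set against the same 3KR peaks. For SUMO-2/3 these were 2586 and 2917 bp long. The wild-type SUMO-2/3 peaks were 967 and 967 bp at the first site and 1006 and 1303 bp at its neighbour. Wild-type GR library 2 also had 1 peak, of 574 tags and 1978 bp, for both sites. The centred GR ratios were -0.94 and -1.17.

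Taken over all strengths, jointly occupied sites lay closer to further GR sites than the other classes did. The median gap to the nearest other wild-type GR site was 18.1 kb, and 781 of 2007 sites, 38.9% (36.8 to 41.1), had one within 10 kb. For shared GR sites without SUMO-2/3 these values were 35.2 kb and 27.1%, and for those with SUMO-2/3 only in wild-type cells 25.2 kb and 33.2%. With SUMO-2/3 only in 3KR cells they were 25.3 kb and 34.1%, where the excess was 4.84 percentage points (0.07 to 9.41). Neighbouring listed sites can share 1 peak of a library, as the pair on chromosome 2 did, and the part of this in the gaps was not tested. Within quintiles of GR fold the excess was 7.48 points (4.37 to 10.6) over sites without SUMO-2/3. It was 4.56 points (1.53 to 7.58) over those with SUMO-2/3 only in wild-type cells. Over the 496 sites with SUMO-2/3 in the 3KR line only it was 0.59 points (-4.56 to 5.74). The order was not the same at every strength: in quintile 4 a further GR site lay within 10 kb of 34.2% of jointly occupied sites, 36.0% of those with SUMO-2/3 only in wild-type cells and 42.0% of those with it only in 3KR cells, and the intervals of these shares overlapped.

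The sites fell in 1033 windows of 1 Mb, of which 558 held a single one and 67 held 5 or more, with 410 sites among them. Windows with at least 8 sites numbered 11. The fullest was chromosome 2 from 28 to 29 Mb, with 11 of its 19 shared GR sites, followed by chromosome 17 from 80 to 81 Mb, with 10 of 16. Of the 11 windows, 6 had no control-line site at any of their jointly occupied sites.

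The remaining windows included 2 in which 5 of the sites had control-line GR. Some of these shared a control-line site, with 3 such sites on chromosome 6 and 4 on chromosome 11. On chromosome 6, 9 of the 12 shared GR sites between 35 and 36 Mb were jointly occupied, all from 35558024 to 35698269. Their GR tags had medians of 524 and 671 in the wild-type and 921 and 898 in the 3KR libraries, and their SUMO-2/3 sites 375.5, 741.5, 382.5 and 828. On chromosome 11, 8 of 12 were, all from 114024790 to 114069500, with GR medians of 267.5, 547, 610 and 449 tags and SUMO-2/3 medians of 364, 391, 149 and 323. SUMO-2/3 fold there spanned 9.32 to 38.5 in wild-type library 1 and 8.41 to 28.11 in 3KR library 1, so weak and strong sites stood side by side.

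By chromosome, the share of shared GR sites that were jointly occupied ran from 11.6% on chromosome 13 (32 of 276, 8.07 to 16.0) to 30.9% on chromosome 19 (50 of 162, 23.9 to 38.6), with 30.6% on chromosome 16 (83 of 271, 25.2 to 36.5). On chromosome X it was 14.3% and on chromosome 1, which held the most of them, 19.4% (191 of 984). The intervals of chromosomes 16 and 19 did not overlap that of chromosome 1. These 5 chromosomes were picked after their values were seen.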

How the data were processed

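The submitters' processing notes name CASAVA, the aligner Bowtie 0.12.9 and the build hg19. Which program called the peaks, and against what control, is not given in the sources used here. The authors deposited peak lists for 9 of 11 samples; the input and IgG libraries were not analysed here. Per the file headers, each peak has a tag count (whole numbers, not normalized, over the peak as called in that library), a fold enrichment (a ratio to background), an FDR in percent and a p column. The deposited p column, a score of unclear scale that is headed as a −log10 p but reaches 3233, was not used. All deposited peaks had at least 51 tags, a fold of at least 8.01 and an FDR of at most 9.99 percent. Tags in listed peaks ranged from 1127839 to 4696781 per duplicate library and were 208776 in the control line; total depth is unknown.

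Libraries of a duplicate group list the same start and end for every site, so each group gave 1 list and class sizes have no replicate error. Each site was paired with the partner it overlapped most. Quintiles rank the mean of both wild-type GR libraries' fold ranks. Shares carry exact 95% Clopper-Pearson intervals and differences Newcombe intervals (statsmodels 0.14.6) or Mantel-Haenszel differences; all cover counting error only. Sites are named by a rule: the 10 best mean fold percentiles, the 5 highest and 5 lowest SUMO-2/3 ratios of the same sign in all 4 pairs, and those next to the overlap limit; windows, chromosomes and the weakest site were added after their values were seen. The sites, classes and rules were chosen with earlier results of these data known. The overlap, ratio and summit code was tested on simulated lists. The reference used here was of another build than hg19, so sites are given by position, and gene names, motifs, distances to gene starts and sequences were not analysed here. Alternatives are in the closing section.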

Additional observations from a re-analysis of the deposited data

How the results depend on the processing

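The number of jointly occupied sites was 1677 with reciprocal overlap of 50%, 1720 without control-line sites and 2006 without sites under 100 bp, but 1271 with centres within 200 bp and 657 above each list's median fold. The wild-type summit distance was 17 bp under both of the latter settings, and from 17 to 22 bp when either library of each group was left out; in the 3KR line that range was 20 to 32.5 bp. Leaving out 1 library, the SUMO-2/3 ratio ranged from 0.08 to 0.15 and the GR ratio from 0.0067 to 0.12, the lowest without 3KR GR library 1. The SUMO-2/3 ratio moved to 0.18 above the median fold and 0.22 with fold in place of tags, also within quintiles of fold (0.22, added after seeing the data). The GR ratio moved to 0.0054 with centres within 200 bp and 0.15 with fold, and to 0.16 (tags) and 0.14 (fold) within quintiles of fold (added). It thus came close to 0 under some of these settings.

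The control-line share against sites with SUMO-2/3 in the wild-type line only kept its sign, with intervals above 0, in every alternative run. Against sites with SUMO-2/3 in the 3KR line only, the pooled interval included 0 with centres within 200 bp (2.96) and above the median fold (3.87). Within quintiles of GR fold it did so with reciprocal overlap (-2.27), centres (-0.63), above the median fold (-2.54), with quintiles by fold without replicate 1 (-2.73) or 2 (-1.55), and in quintiles or 20 strata of GR fold in both lines (-2.05 and -2.50, added). Against sites without SUMO-2/3 the within-quintile difference, whose interval included 0, turned sign with reciprocal overlap (0.40) and with quintiles by fold without replicate 1 (1.26) or 2 (0.66). The causes were not tested.

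With a replicate block, which pairs same-numbered libraries (added after seeing the data), the ratios were 0.12 for SUMO-2/3 and 0.07 for GR, the same as over all 4 pairs by construction. The single same-numbered pairs gave 0.13 and 0.10 for SUMO-2/3 and 0.12 and 0.002 for GR. Overlaps use 1 list per group and no replicate numbers. The labels do not say that the numbers mark shared cultures. Palindrome and gene-start results were not run. Class sizes have no replicates, and binding below the limits of listing is not seen in these lists.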
